A study of Mus musculus with 15 samples.

Results

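Loss of the transcription factor Eos alone was examined in splenic CD4+CD25+ cells by setting the 3 arrays titled Ikzf4-/- Tregs against WT Tregs 1 to 3, which is 6 of the 15 arrays in the series. These 6 arrays were taken by genotype and number in their titles, and no measured value entered the choice. The control group was WT and the other group carried Ikzf4-/- as its single named allele; both are labelled as sorted CD4+CD25+ (Treg) cells from mouse spleen, with no treatment. Age, strain, how the Ikzf4 allele was made and whether animals were pooled are not given in the sources used here. The series also holds WT Tregs 4 to 6, Ikzf2-/- cells and cells lacking both factors (dKO), of which only dKO is used here, as values set beside those of Ikzf4-/-.

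Regulatory T (Treg) cells restrain immune responses under the control of Foxp3. Eos is a zinc finger factor of the Ikaros family that is known to bind Foxp3 and to recruit corepressors such as CtBP to genes that Treg cells keep silent, interleukin 2 and interferon gamma among them. Family members recognise DNA around a shared core of the letters TGGGAA, and members can pair with one another, so loss of 1 member leaves related proteins in the cell.

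No gene passed the test in this comparison. Limma called 0 of 10448 genes at an adjusted p threshold of 0.05, which is 0%, and the smallest adjusted p was 0.478. At an unadjusted p under 0.05 there were 363 genes, 3.47% of those tested, of which 203 were higher (1.94%) and 160 lower (1.53%) in Ikzf4-/-. With the replicate number as a block, limma again called 0 genes, the smallest adjusted p being 0.853, while 497 genes (4.76%) had an unadjusted p under 0.05. Every difference described from here on therefore failed the adjusted test and stands as a measured value. The labels do not state that the arrays came from different animals, and p-values then describe only the spread among arrays, which may be technical in part. Sex-linked signals, given further on, differed among the arrays of each group, so each group drew on more than 1 animal.

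The differences were small for nearly all genes. The median log2 difference, Ikzf4-/- minus WT, was 0.007, and 94.6% of genes lay within 0.25 of 0. A difference over 0.5 was found in 103 genes (0.986%), 30 higher and 73 lower, and a difference over 1 in 19 genes, 3 higher and 16 lower. Without WT 1, an array described further on, these counts were 55 and 59, and 6 and 10. The 95% interval of a gene's difference had a median half-width of 0.21 and was narrower than 0.5 to either side for 96.3% of genes. With 3 arrays a group, smaller shifts were not measurable gene by gene. As a second description, a gene is called separated where all 3 Ikzf4-/- arrays lie above, or all below, all 3 WT arrays. This held for 388 genes upward (3.71%) and 307 downward (2.94%), and every count of separated genes in a list is to be read against these shares. Members and lists were chosen with earlier results of these data known, so a count above a share is not independent support.

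**Figure D1:**
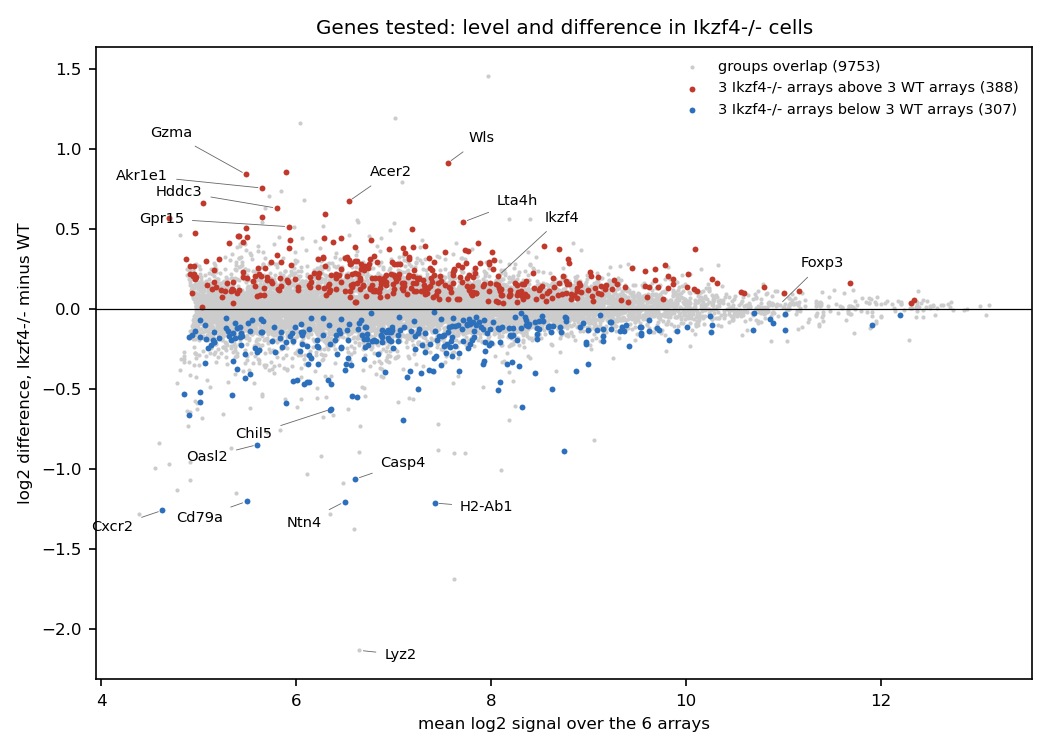
Each point is 1 of 10448 genes, with the mean log2 signal over the 6 arrays on the x axis and the log2 difference Ikzf4-/- minus WT on the y axis. Red and blue points are the 388 and 307 genes whose groups are separated upward and downward, none of which passed limma's adjusted threshold, and the spread of differences is widest among dim genes.

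Promoters of 4 genes are shown because the results return to these genes: Ntn4 and Chil5 are separated genes with large differences or small p, and Oas1a and Stat2 belong to the pathway list with the lowest median, the interferon response genes. All 4 windows hold the motif marked in them. Other leading genes differ: Casp4, for example, also holds TGGGAA, while Hddc3 and Lta4h hold neither motif. Each window runs from 250 bases before to 50 bases after the gene's start, 300 bases in all, read on the gene's strand from RefSeq for the build GRCm38.p6. Capitals mark TGGGAA, the Ikaros family core, in the first pair. In the second pair they mark the interferon-stimulated response element, searched as GAAA, any 2 bases and GAAA again. Ntn4 lies at chr10:93640799-93641098 on the plus strand, Chil5 at chr3:106032846-106033145 on the minus strand, Oas1a at chr5:120907476-120907775 on the minus strand and Stat2 at chr10:128270248-128270547 on the plus strand.
Ntn4: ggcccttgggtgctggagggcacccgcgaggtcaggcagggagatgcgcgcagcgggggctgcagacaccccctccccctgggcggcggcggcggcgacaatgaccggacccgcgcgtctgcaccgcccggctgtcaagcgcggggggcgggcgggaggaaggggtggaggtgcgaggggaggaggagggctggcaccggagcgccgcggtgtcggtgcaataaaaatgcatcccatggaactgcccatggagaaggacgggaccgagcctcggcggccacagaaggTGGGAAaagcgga
Chil5: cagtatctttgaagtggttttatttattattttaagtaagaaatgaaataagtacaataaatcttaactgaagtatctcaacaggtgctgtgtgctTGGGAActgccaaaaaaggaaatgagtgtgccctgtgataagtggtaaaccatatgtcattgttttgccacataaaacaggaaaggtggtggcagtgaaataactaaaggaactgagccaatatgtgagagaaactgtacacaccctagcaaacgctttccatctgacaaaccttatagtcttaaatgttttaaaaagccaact
Oas1a: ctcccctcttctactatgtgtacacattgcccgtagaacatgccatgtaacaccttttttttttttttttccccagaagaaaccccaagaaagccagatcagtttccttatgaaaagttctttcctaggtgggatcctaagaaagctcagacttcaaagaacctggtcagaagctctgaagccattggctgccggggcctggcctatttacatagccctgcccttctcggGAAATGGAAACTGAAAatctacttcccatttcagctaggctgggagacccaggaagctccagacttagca
Stat2: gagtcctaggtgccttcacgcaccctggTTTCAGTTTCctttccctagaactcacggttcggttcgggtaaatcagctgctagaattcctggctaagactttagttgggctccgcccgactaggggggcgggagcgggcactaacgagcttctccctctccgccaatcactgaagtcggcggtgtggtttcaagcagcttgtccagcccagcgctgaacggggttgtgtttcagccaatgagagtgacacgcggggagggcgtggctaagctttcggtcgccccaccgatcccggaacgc
In Oas1a the capitals cover 2 overlapping matches of the response element, and in Stat2 they show a match on the opposite strand. Both motifs were searched on both strands. TGGGAA was present in 25.6% of all 32851 promoter windows and in 25.8% of the 8419 tested genes that had a window. Among separated genes with a window it was in 23.5% of 311 that were higher and in 24.4% of 250 that were lower. The response element was present in 3.44% of all windows and in 3.8% of tested genes with a window. It was in 13 of the 20 tested interferon response genes that had a window. Oasl2, which had the largest difference of the interferon response list, held neither motif, and Hddc3 and Lta4h held no TGGGAA. Among the 12 separated genes with the smallest p in each direction, TGGGAA was in 3 of 10 higher and 5 of 9 lower genes that had a window. A match is a stretch of letters and not a measured binding site.

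The targeted gene and its family were read first. Ikzf4 signals were 7.83, 8.07 and 8.02 in WT 1 to 3 and 8.22, 8.13 and 8.19 in Ikzf4-/- 1 to 3. The 3 Ikzf4-/- arrays were thus all above the WT arrays, with a log2 difference of 0.21 (SE 0.08, unadjusted p = 0.0338, limma adjusted p = 0.979). Whether the probes of this set fall inside the removed part of the gene is not known here. A signal from outside that part gives no check of the labels, so the values neither bear out nor oppose the genotype. In dKO, the other genotype without Ikzf4, the signal was 8.07 to 8.20.

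The remaining family genes overlapped between the groups. Ikzf1 (Ikaros) stood 0.11 higher (SE 0.08), Ikzf3 (Aiolos) 0.09 higher (SE 0.08) and Ikzf5 (Pegasus) at -0.02 (SE 0.09). Ikzf2, which encodes Helios, read 10.46, 10.74 and 10.76 in WT and 10.49, 10.71 and 10.81 in Ikzf4-/-, a difference of 0.01 (SE 0.12) with a 95% interval from -0.27 to 0.29. The Ikzf2 signal was therefore at nearly the same level in both groups, array for array, and larger shifts of this signal lie outside that interval. In dKO, which also lacks Helios, the Ikzf2 signal was still 10.11, 10.16 and 10.59. Whether its probes fall inside the removed part of Ikzf2 is not known here.

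Genes that define Treg cells were likewise alike in both groups. Foxp3 read 10.99, 11.01 and 10.85 in WT and 10.97, 10.93 and 11.02 in Ikzf4-/-, a difference of 0.03 (SE 0.07). Il2ra, which encodes the CD25 used for the sort, differed by 0.01 (SE 0.07; -0.0026 when quantile-normalized again), the inhibitory receptor gene Ctla4 by 0.09 (SE 0.07) and the GITR gene Tnfrsf18 by 0.03 (SE 0.08). Of 22 core Treg genes listed, 21 were tested and 0 were separated, and their median difference was 0.003 against 0.007 for all genes. The most distant members were the inhibitory receptor gene Tigit at -0.17 (SE 0.23) and Nt5e, which encodes the adenosine-forming enzyme CD73, at 0.16 (SE 0.12). In both the arrays of the groups overlapped.

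Corepressors and Foxp3 partners, through which Eos is known to act, formed a list of 26 genes. All 24 tested members overlapped, with a median of -0.009 and a range from -0.11 (Mta1, a subunit of the NuRD complex) to 0.06. Runx3, a Foxp3 partner, stood at -0.10 (SE 0.17) and was 0.09 without WT 1.

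A list of genes tied to conventional T cells was read next, as Eos is known to act on genes that Treg cells keep silent. Many tested members were bright in these WT cells, such as Satb1 (mean 10.49), Il7r (10.19) and Lef1 (9.51). Il2, Il4, Il17a, Il21 and Csf2 lay below the level needed for the test. The tested members therefore do not show whether silent genes stayed silent. Of 22 listed, 21 were measured and 14 lay above the level needed for the test, and 0 of these were separated. Their median difference was 0.03. Ifng, the interferon gamma gene, read 4.87, 5.44 and 5.21 in WT and 4.59, 4.93 and 5.21 in Ikzf4-/-, a difference of -0.26 (SE 0.20). Its Ikzf4-/- mean lay below the level needed for the test (4.976), so Ifng was tested only through WT. Il2 lay below the tested range, between 4.84 and 5.07 on the 6 arrays. Il7r, the interleukin-7 receptor gene, stood 0.27 higher (SE 0.19), and the CD40 ligand gene Cd40lg 0.18 higher (SE 0.14). No member of this list was separated in either direction.

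**Figure D2:**
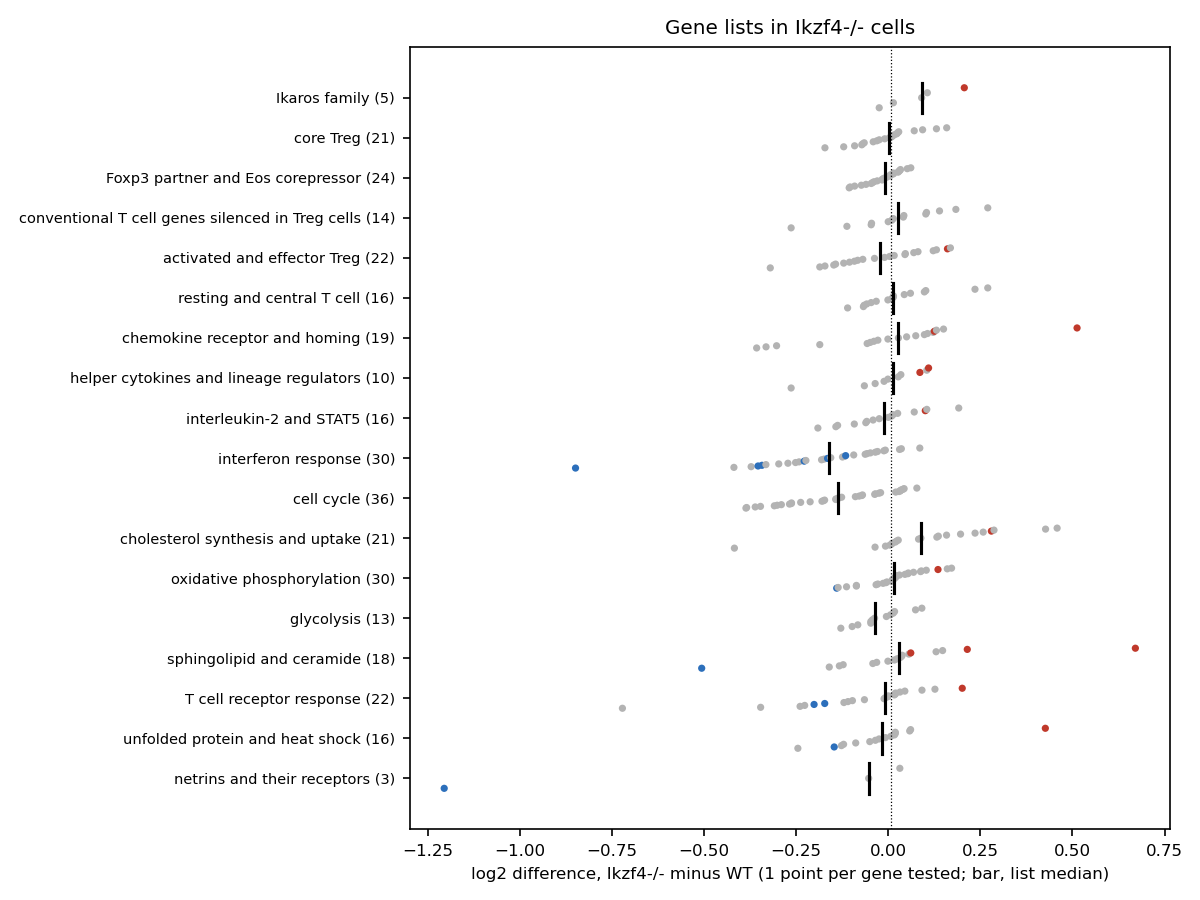
Each point is 1 tested gene of a pathway list (rows, number tested in brackets), placed by its log2 difference Ikzf4-/- minus WT (x axis); black bars are list medians, the dotted line is the median of all genes (0.007), and red and blue points are separated upward and downward. The interferon response median lies furthest below 0 (-0.16), and the core Treg and corepressor medians lie near 0.

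The 12 smallest p-values among separated genes that were higher in Ikzf4-/- belonged to genes of varied function. Hddc3, which encodes a phosphohydrolase of the HD domain family, read 5.36, 5.57 and 5.53 in WT and 6.13, 6.08 and 6.13 in Ikzf4-/-. The groups lay clearly apart, by 0.63 (SE 0.07) or 1.55-fold, and the unadjusted p was 9.15e-05 (limma adjusted p = 0.478). Lta4h, which encodes the hydrolase that forms leukotriene B, read 7.37, 7.44 and 7.53 in WT and 7.96, 8.09 and 7.91 in Ikzf4-/-. Its difference was 0.54 (SE 0.07, limma adjusted p = 0.814). Gpr15, a colon-homing receptor gene of T cells, read 5.60, 5.75 and 5.65 in WT and 6.10, 6.08 and 6.36 in Ikzf4-/-, a difference of 0.51 (SE 0.09). Prrg4, a transmembrane protein gene, read 4.83, 4.64 and 4.65 in WT, below the level needed for the test (4.976). It stood at 5.54, 5.16 and 5.41 in Ikzf4-/-, 0.66 higher (SE 0.11), and was tested only through that group.

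Akr1e1, an aldo-keto reductase gene, showed the largest difference among these 12, 0.75 (SE 0.16), with Ikzf4-/- arrays at 6.39, 5.95 and 5.74 above WT arrays at 5.28, 5.18 and 5.36. The other members were Eid2b (0.42), Hinfp, a histone gene transcription factor (0.33), BC029722 (0.32), the deubiquitinase gene Mindy2 (0.31), the zinc finger gene Zfp128 (0.31), the F-box gene Fbxo21 (0.30) and Lancl1 (0.28), with SEs between 0.06 and 0.07. Lancl1 varied little in WT, at 7.85, 7.83 and 7.85, against 8.11, 8.20 and 8.06 in Ikzf4-/-. None had an adjusted p below 0.478.

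Genes with larger but more variable differences upward followed. Wls, whose product carries Wnt proteins to the cell surface, read 7.09, 7.17 and 7.05 in WT and 8.68, 7.30 and 8.05 in Ikzf4-/-. The difference of 0.91 (SE 0.32) thus rested mostly on Ikzf4-/- 1 and 3. Gzma, the granzyme A gene, read 4.99, 4.71 and 5.49 in WT and 6.36, 5.55 and 5.80 in Ikzf4-/-, 0.84 higher (SE 0.27), and the lowest Ikzf4-/- array lay only just above the highest WT array. The small nucleolar RNA gene Snora69 stood 0.85 higher (SE 0.26) and Rpa3, a subunit of the single-strand DNA binding protein RPA, 0.59 higher (SE 0.21).

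Among separated genes that were lower, Ntn4 stood out by size and order of p together. Ntn4 encodes netrin 4, a secreted protein of basement membranes. It read 6.89, 7.54 and 6.87 in WT and 6.05, 5.85 and 5.78 in Ikzf4-/-, so that even the highest Ikzf4-/- array was well under the lowest WT array. The difference was -1.21 (SE 0.19), a WT level 2.31 times that of Ikzf4-/-, with an unadjusted p of 0.000568 (limma adjusted p = 0.979). Casp4, an inflammatory caspase gene, read 6.80, 7.20 and 7.42 in WT and 6.15, 6.20 and 5.87 in Ikzf4-/-, a difference of -1.06 (SE 0.17) with the groups again clearly apart. Of 14 netrin and netrin receptor genes listed, 3 were bright enough to be tested, and Ntn1 (-0.05, SE 0.12) and Ntng1 (0.03, SE 0.08) overlapped between groups.

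Chil5, a chitinase-like protein gene, had the smallest p of all genes in the fit without the block, and an unadjusted p of 0.000787 with it. It read 6.64, 6.74 and 6.64 in WT and 6.12, 5.95 and 6.08 in Ikzf4-/-, a difference of -0.63 (SE 0.07, unadjusted p = 6.76e-05, limma adjusted p = 0.478). Snora7a, a small nucleolar RNA gene, stood at -0.61 (SE 0.10), Islr at -0.54 (SE 0.09), Lysmd2 at -0.46 (SE 0.08) and the cytochrome gene Cyp4f16 at -0.43 (SE 0.09). Dusp6, which encodes a phosphatase of the ERK kinases, read 6.72, 6.87 and 6.64 in WT and 6.37, 6.44 and 6.36 in Ikzf4-/-, -0.35 (SE 0.07). Gpatch2 (-0.31) and Tkfc (-0.27) completed the group with Oasl2 and Csf1r, which are taken up below with their own classes.

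**Figure D3:**
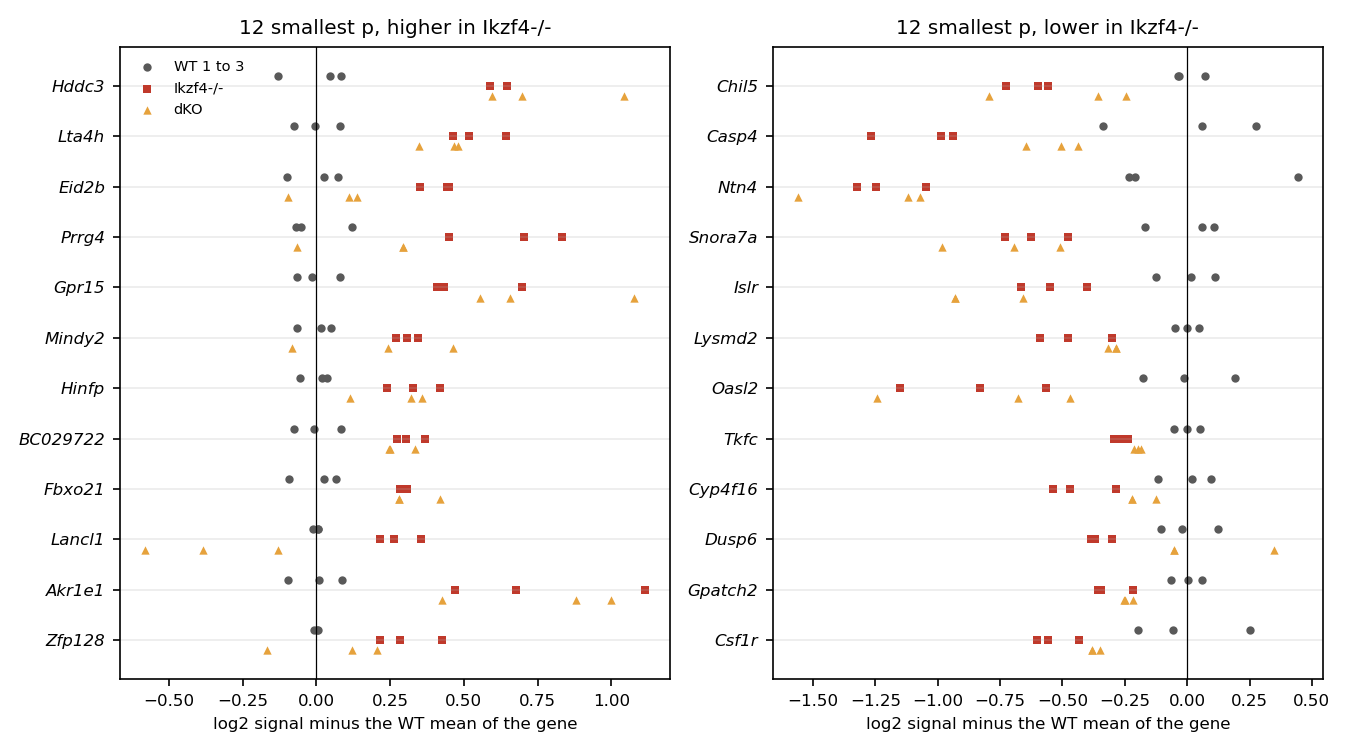
Log2 signal of each array minus the gene's WT mean (x axis) for the 12 separated genes with the smallest p in each direction (rows); grey circles are WT 1 to 3, red squares Ikzf4-/- and orange triangles dKO. Red squares lie to one side of the grey circles in each row, which is how the genes were picked, and the triangles lie with the squares for Ntn4 and on the other side of WT for Lancl1.

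Ntn4 and Lta4h are neighbours in RefSeq's gene order, and the genes around them were looked at after these values were seen. Of the 10 tested genes nearest on each side of Ntn4, 20 in all, 6 were separated upward and 0 downward, Ntn4 itself being lower. Besides Lta4h these were Cdk17 (0.37, SE 0.10), the ETS factor gene Elk3 (0.28, SE 0.10), Fgd6 (0.26, SE 0.09), the apoptosome gene Apaf1 (0.19, SE 0.08) and Actr6 (0.17, SE 0.12). Ikzf4 lies on the same chromosome as Ntn4. Of the 517 tested genes of that chromosome 4.84% were separated upward and 3.09% downward, and of the 10 tested genes nearest on each side of Ikzf4, 0 were separated upward and 2 downward. What sets the values near Ntn4 was not tested.

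Interferon response genes had the lowest median of the pathway lists. Of 39 listed genes 33 were measured and 30 tested. The median difference was -0.16 (all genes 0.007), 27 of 30 were negative (all genes 46.6%), and 6 were separated, all downward (all genes 2.94%). At an unadjusted p under 0.05 there were 4 lower (all genes 1.53%) and 0 higher, and limma called 0. Counted by pair, the median was -0.18 for arrays numbered 1, -0.26 for those numbered 2 and 0.01 for those numbered 3, so the shift was in the first and second pair and not in the other. Without WT 1 the median was -0.19.

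Sensors and effectors carried the largest values of this list. Oasl2, an OAS-like gene of antiviral defence, read 6.22, 5.85 and 6.01 in WT and 4.88, 5.20 and 5.46 in Ikzf4-/-, a difference of -0.85 (SE 0.16, unadjusted p = 0.00167, limma adjusted p = 0.979). Oas1b, an oligoadenylate synthetase family gene, read 7.56, 7.76 and 7.65 in WT and 7.29, 7.42 and 7.20 in Ikzf4-/-, -0.35 (SE 0.08). Iigp1, an interferon-inducible GTPase gene, read 8.23, 8.23 and 8.54 in WT and 7.93, 7.93 and 8.12 in Ikzf4-/-, -0.34 (SE 0.11). These 3 genes were separated, which by itself makes them lower in every pair of equal number. Oas1a (-0.42, SE 0.17) and the RNA helicase regulator gene Dhx58 (-0.37, SE 0.19) had larger differences than some of them, but their groups overlapped.

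Transcription factors and regulators of the pathway showed smaller values. Stat2 read 7.98, 8.22 and 8.08 in WT and 7.95, 7.69 and 7.97 in Ikzf4-/-, a difference of -0.23 (SE 0.10) in which the groups only just failed to touch. Usp18, which dampens interferon receptor signalling, stood at -0.16 (SE 0.08) and Parp9 at -0.12 (SE 0.07), both separated. Irf7 (-0.22, SE 0.16) and Irf9 (-0.18, SE 0.11) overlapped. The guanylate binding protein genes Gbp3 (-0.06, SE 0.08) and Gbp7 (-0.03, SE 0.10) were near 0, and the positive members were Ifit2 (0.09), Parp14 (0.04) and Isg20 (0.03).

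**Figure D4:**
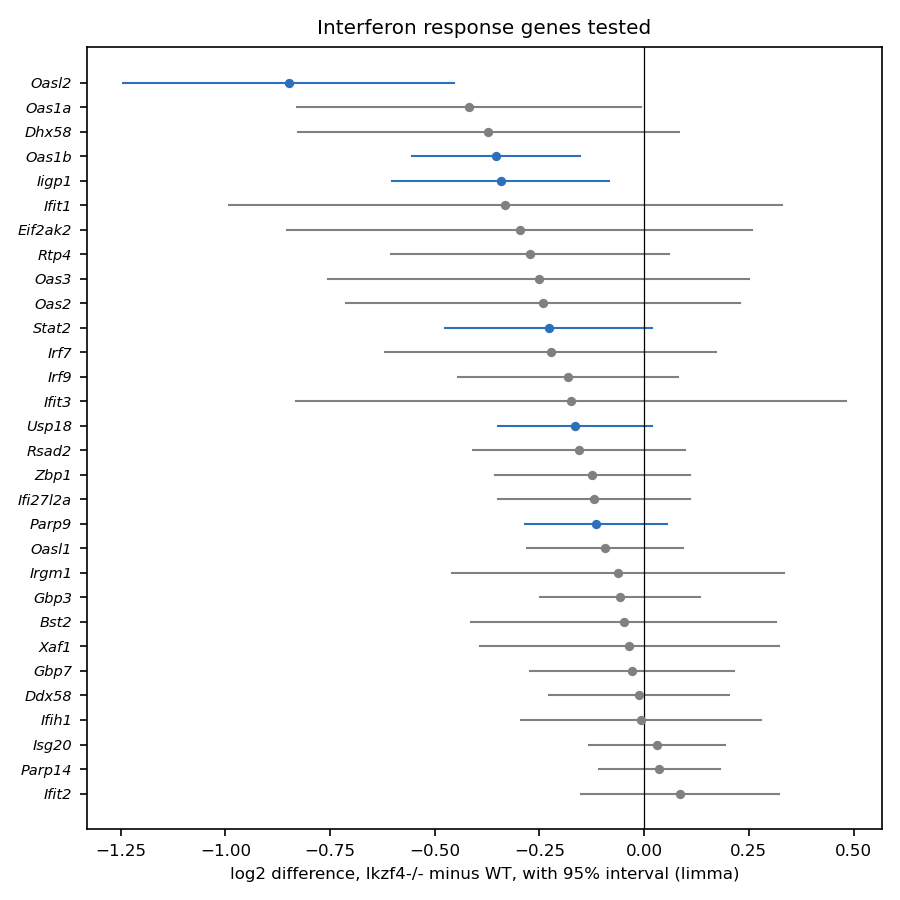
Log2 difference Ikzf4-/- minus WT (x axis) of the 30 tested interferon response genes (rows), as points with limma's 95% interval as lines; blue marks the 6 genes whose 3 Ikzf4-/- arrays all lie below the 3 WT arrays. The points of 27 genes lie below 0, and most intervals reach across 0, that of Oasl2 running from -1.24 to -0.45.

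Genes of cholesterol synthesis and uptake leaned the other way. Of 21 tested, 18 were positive (all genes 53.3%), the median was 0.09, and 1 was separated, upward (all genes 3.71%). This gene was Sqle, which encodes squalene epoxidase. It read 6.84, 7.07 and 6.87 in WT and 7.24, 7.24 and 7.14 in Ikzf4-/-, 0.28 higher (SE 0.08). The isomerase gene Idi1 (0.46, SE 0.19) and the sterol demethylase gene Cyp51 (0.43, SE 0.14) had larger differences with overlapping groups, and Cyp51 was higher by 0.44, 0.39 and 0.44 in the pairs numbered 1, 2 and 3. Srebf2, the transcription factor gene of this pathway, was at 0.01 (SE 0.06), and Stard4, a sterol carrier gene, at -0.42 (SE 0.20). The list's pair medians were smaller, at 0.02, 0.07 and 0.02, and without both arrays numbered 3 the list median was 0.02.

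Sphingolipid genes, a list chosen with earlier results of these data known, had 4 separated members among 18 tested. Of these, 3 were higher (all genes 3.71%) and 1 lower (all genes 2.94%), and the list median was 0.03. Acer2, a ceramidase gene of the Golgi, read 6.02, 6.60 and 5.99 in WT and 6.85, 6.86 and 6.91 in Ikzf4-/-. The Ikzf4-/- arrays were nearly equal and WT 2 stood nearest to them, and the difference was 0.67 (SE 0.17, unadjusted p = 0.00574, limma adjusted p = 0.979). The lysosomal ceramidase gene Asah1 was 0.21 higher (SE 0.08) and the sphingosine kinase gene Sphk2 0.06 higher (SE 0.05). The ceramide synthase gene Cers4 was separated downward. It differed by -0.53, -0.50 and -0.49 in the pairs numbered 1, 2 and 3, and by -0.51 over all arrays (SE 0.16). None of these values passed the test. In dKO, minus WT, Acer2 stood at 0.27, Asah1 at -0.05 and Cers4 at -0.37, with dKO arrays of Cers4 from 7.52 to 8.62. Whether ceramide turnover differed was not tested.

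Cell cycle genes were mostly lower without being separated. Of 36 tested, 28 were negative (all genes 46.6%), 0 were separated and the median was -0.14. The spindle gene Tpx2 (-0.39, SE 0.25) and the ribonucleotide reductase gene Rrm2 (-0.38, SE 0.19) had the largest values. Tested members averaged 6.68, 6.82 and 6.52 in WT and 6.38, 6.84 and 6.39 in Ikzf4-/-. Ikzf4-/- 2 was thus the highest array and the others of its group the lowest, and the pair medians were -0.21, 0.01 and -0.14.

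The activated and effector Treg list varied from pair to pair. Of 22 tested genes 1 was separated, upward (all genes 3.71%). This was the transcription factor gene Maf, 0.16 higher (SE 0.07). The list median was -0.02, while the pair medians were -0.48, 0.23 and 0.01. Il10, which encodes the suppressive cytokine interleukin 10, showed the same split, with 5.92, 5.93 and 5.05 in WT and 4.85, 7.15 and 5.40 in Ikzf4-/-. Its highest and its lowest signal were both in Ikzf4-/- arrays, and the difference of 0.17 had an SE of 0.59. Prdm1 (Blimp-1) stood at -0.32 (SE 0.19) and Cxcr3 at -0.19 (SE 0.16), both higher than WT in the pair numbered 2 and lower in the others. Resting and central T cell genes had 0 separated among 16 and a median of 0.01, and Id3, an inhibitor of E proteins, stood 0.24 higher (SE 0.12).

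Signalling and migration genes gave few separated members, to be read against 3.71% upward and 2.94% downward over all genes. Of 19 tested chemokine receptor and homing genes, 2 were separated, Gpr15 and Ccr10 (0.13, SE 0.07), both higher; Ccr10 held the single value 5.40 on all 3 Ikzf4-/- arrays. Cx3cr1 (-0.36, SE 0.18) and Ccr3 (-0.33, SE 0.13) overlapped. Of 16 interleukin-2 and STAT5 genes only the kinase gene Jak1 was separated (0.10 higher, SE 0.05), and the feedback inhibitor genes Cish (0.19, SE 0.11) and Socs1 (-0.19, SE 0.10) lay on opposite sides of 0. Among 10 helper cytokine and lineage genes Stat4 (0.11, SE 0.07) and Tnf (0.09, SE 0.05) were separated upward. Of 22 T cell receptor response genes, Nfkbid was separated upward (0.20, SE 0.08) and Dusp1 (-0.20, SE 0.09) and Fosl2 (-0.17, SE 0.08) downward. Jun read 7.63, 8.08 and 7.74 in WT and 6.61, 6.92 and 7.75 in Ikzf4-/-, so its difference of -0.72 (SE 0.29) came from Ikzf4-/- 1 and 2 only.

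Metabolic and stress lists stayed close to all genes, of which 3.71% were separated upward and 2.94% downward. Of 30 oxidative phosphorylation genes Ndufb10 of complex I (0.13, SE 0.06) was separated upward and Sdhc of complex II (-0.14, SE 0.06) downward, with a list median of 0.02. Of 13 glycolysis genes 0 were separated, and the median was -0.04. Of 16 unfolded protein and heat shock genes the deubiquitinase gene Yod1 was separated upward, with 6.53, 6.58 and 6.56 in WT and 7.11, 6.75 and 7.09 in Ikzf4-/- (0.43, SE 0.10). The chaperone gene Hspa5 was separated downward (-0.15, SE 0.06).

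Markers of other cells differed among the arrays, those of B cells and neutrophils mostly through 1 WT array. The mean log2 signal of 11 measured B cell markers was 6.84 in WT 1 and 4.74 to 4.97 in the other 5 arrays, and 10 of the 11 were highest in WT 1. The mean of 10 neutrophil markers was 6.65 in WT 1 and 4.26 to 4.90 in the others. The mean of 12 macrophage and dendritic cell markers was 5.38, 5.03 and 5.23 in WT and 4.96, 4.77 and 4.95 in Ikzf4-/-, so all WT arrays lay above all Ikzf4-/- arrays, and 6 of the 12 were highest in WT 1. Erythroid markers (3 measured) lay the same way, with means of 4.94, 4.74 and 5.15 in WT and 4.56, 4.52 and 4.51 in Ikzf4-/-. The part of either class in other differences was not tested. CD4 T cell markers (10.33 to 10.42) and Treg markers (9.999 to 10.19) were high on all 6 arrays. NK cell marker means ran from 4.54 to 4.80 and CD8 T cell marker means from 5.64 to 6.08. Their members differed: Cd8a read 4.33 to 4.78 and Cd8b1 6.85 to 7.38, and the NK cell markers Eomes and Prf1 lay above the level needed for the test. In such bulk samples fewer cells of a type and less RNA per cell cannot be told apart.

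**Figure D5:**
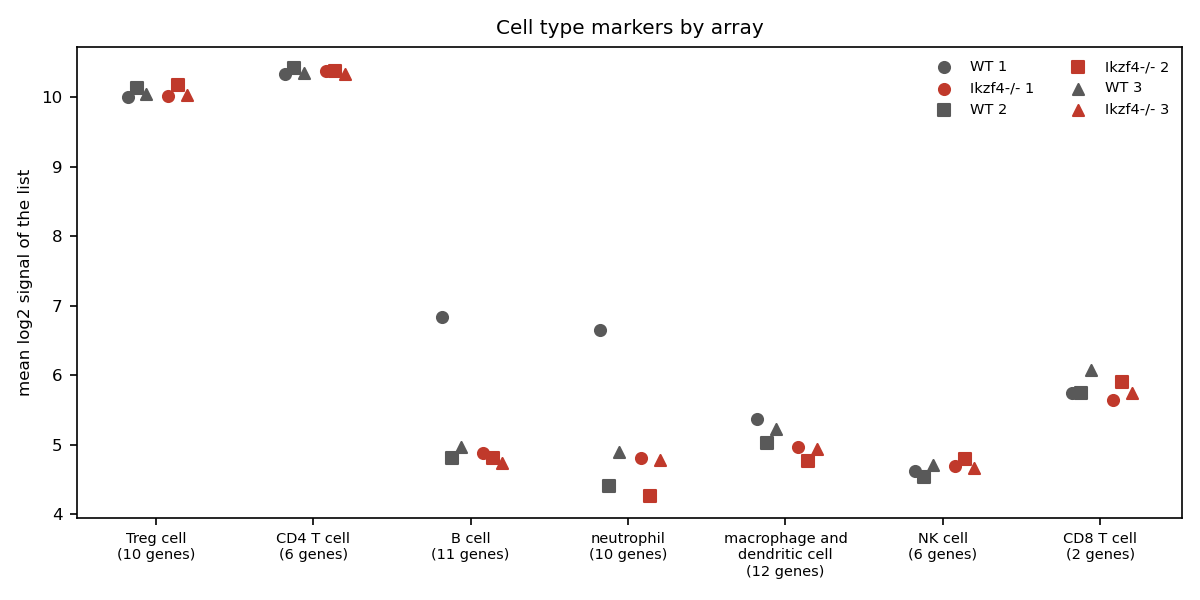
Mean log2 signal (y axis) over the measured genes of 7 marker lists (x axis) on each of the 6 arrays, grey for WT and red for Ikzf4-/-, with circles, squares and triangles for the numbers 1, 2 and 3. B cell and neutrophil means are 6.84 and 6.65 on WT 1 and between 4.26 and 4.97 on the other 5 arrays, while the CD4 T cell and Treg means are the highest on all 6 arrays.

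Several of the largest negative differences were of these classes. Cd79a, a B cell receptor chain gene, read 8.16, 5.00 and 5.12 in WT and 4.92, 4.88 and 4.87 in Ikzf4-/-, and its difference of -1.20 (SE 0.82) was -0.17 without WT 1. The MHC class II gene H2-Ab1 stood at -1.21 (SE 0.60) and at -0.49 without WT 1, and the apolipoprotein gene Apoe at -0.69 (SE 0.26) and -0.38. Others kept more of their difference without that array. Cxcr2, a neutrophil chemokine receptor gene, read 6.08, 4.71 and 4.97 in WT and 3.90, 3.95 and 4.14 in Ikzf4-/- (-1.26, SE 0.34, and -0.85 without WT 1). Csf1r, the macrophage growth factor receptor gene, stood at -0.53 (SE 0.12) and at -0.41 without it. The Ikzf4-/- means of Cxcr2 (4.00), Csf1r (4.58) and Cd79a (4.89) lay below the level needed for the test (4.976), so these genes were tested only through WT. The lysozyme gene Lyz2 read 8.91, 6.20 and 8.03 in WT and 6.27, 4.42 and 6.04 in Ikzf4-/-, the largest difference of all tested genes (-2.13, SE 0.78, and -1.54 without WT 1). Its groups overlapped, but it was lower in each pair, by -2.64, -1.77 and -1.99, and with the replicate block it had an SE of 0.18 and an unadjusted p of 0.000122, the smallest of that fit (limma adjusted p = 0.853). For Ntn4, Casp4, Chil5, Oasl2 and Hddc3 the values without WT 1 were -1.31, -1.23, -0.64, -0.75 and 0.56, close to those with all arrays.

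The arrays numbered 3 differed from the others in sex-linked genes. The Y-linked gene Eif2s3y read 8.17 in WT 3 and 8.64 in Ikzf4-/- 3, and 2.97 to 3.08 on the other 4 arrays, while Xist read 3.82 and 4.11 against 9.98 to 10.23. Both groups hold 1 such array, so this difference lies within the groups and between the pairs, and not within a pair. Of the dKO arrays, number 1 read 3.09 for Eif2s3y and 10.11 for Xist, number 3 read 8.81 and 4.17, and number 2 read 7.94 and 7.25, with both genes well above their low level. Array medians ran from 4.95 to 5.01.

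Cells lacking both Helios and Eos gave a further reading of the same genes, though their difference from WT uses the same WT 1 to 3, so both sets of differences share those values, and the sex-linked signals of dKO 2 given above differ from those of both WT 2 and Ikzf4-/- 2. For Ntn4 the dKO arrays lay between 5.54 and 6.03, a difference of -1.25 from WT against -1.21 in Ikzf4-/-. For Hddc3 dKO minus WT was 0.78 against 0.63, for Gpr15 0.76 against 0.51, for Akr1e1 0.77 against 0.75, for Lta4h 0.43 against 0.54 and for Wls 1.01 against 0.91. Other genes of the 12 were near WT in dKO: Eid2b stood at 0.05 against 0.42, Zfp128 at 0.05 against 0.31 and Prrg4 at 0.17 against 0.66. Among interferon response genes Oasl2 stood at -0.80 against -0.85. Others were nearer WT in dKO: Oas1b at -0.12 against -0.35, Oas1a at -0.10 against -0.42 and Stat2 at -0.08 against -0.23. The tested members of that list averaged 7.90, 7.67 and 7.76 in dKO and 7.76, 7.98 and 7.67 in WT, so the list means overlapped. For Chil5 dKO minus WT was -0.47 against -0.63 and for Casp4 -0.53 against -1.06. Some genes had opposite signs: Lancl1 stood at -0.36 there and 0.28 in Ikzf4-/-, Iigp1 at 0.66 and -0.34, Ccr3 at 0.79 and -0.33, Ifng at 0.64 and -0.26, and Dusp6 at 0.08 and -0.35. Of these, Ifng was tested only through WT, as its Ikzf4-/- mean lay below the level needed for the test. Differences between the 2 knockouts were not tested.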

How the data were processed

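Total RNA (15 ng an array, per the labels' protocols) from sorted cells was hybridised to single-colour Affymetrix arrays. The authors deposited log2 signals for 35556 probe sets, made with Affymetrix Expression Console 1.3.1 and RMA, per the submitters' processing notes. RMA normalizes arrays jointly and compresses differences of dim genes. For the array design no genome build was at hand, so its probes are not placed.

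Probe sets with 1 symbol in the platform annotation (21789, of which 21698 were updated through Entrez identifiers; 1621 had several symbols and 12146 are unnamed here) gave 19938 genes, each read from its brightest probe set. A gene was tested where either group mean exceeded the median probe set mean (4.976), leaving 10448. A gene could thus be tested through the group where it is high alone. The 6 arrays were fitted in limma 3.58.1 (R 4.3.3; lmFit, eBayes) with Benjamini-Hochberg adjustment at 0.05, tested on simulated data. The number of arrays limits the precision. Columns belonging to no sample numbered 0.

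Replicate numbers come from the titles. Deviations from group means correlated over genes at 0.118, 0.200 and 0.258 between equal numbers (from -0.184 to 0.009 between unequal ones), so the numbers were taken to pair the arrays; this rests on the values. WT 1 to 3 were taken as controls by their numbering.

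Always named were Foxp3, Ctla4, Il2ra, Tnfrsf18 and the genes Ikzf1 to Ikzf5. As no gene passed, the 12 smallest p and 8 largest differences per direction among separated genes followed, then up to 4 separated and 2 overlapping members per list with the largest differences. Other genes with values were chosen after their values were seen. Members and lists were chosen with earlier results of these data known. Alternatives were the replicate block, other array sets, filters, normalizations, probe set rules, array weights, a B cell covariate and leaving out arrays.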

Additional observations from a re-analysis of the deposited data

How the results depend on the processing

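Limma called 0 genes in every alternative run, so no named gene gained or lost a call. In the paired fit, with the replicate number as a block, the count called was 0 with 497 genes at an unadjusted p under 0.05, against 363 without it. That unadjusted count was 235 with all 15 arrays in the fit, 593 without a filter and 199 with the stricter filter. Separated genes numbered 695 in both directions together, 1079 without a filter and 387 with the stricter filter. Leaving out 1 array gave 1496 to 1738 separated genes, since fewer arrays then have to differ, and 326 to 441 genes at an unadjusted p under 0.05. Of 94 named genes, 81 kept their sign in all alternatives. The others changed sign under the settings given next, without passing the test in any of them. With array weights Ikzf2 was -0.028, Foxp3 -0.0040, Il2ra -0.0064, Tnfrsf18 -0.022 and Ntn1 0.0094. With a covariate for the B cell mean Ikzf2 was -0.12, Il2ra -0.078, Cd79a 0.15, Runx3 0.14 and Lta -0.13. Without both arrays numbered 3 Ikzf2 was -0.0044, Ikzf3 -0.027, Foxp3 -0.047, Tnfrsf18 -0.032, Tigit 0.0001 and Ntn1 0.073. Without both numbered 1 Il2ra was -0.047 and Runx3 0.027. Il2ra was -0.0026 when quantile-normalized again, and Ntng1 -0.0032 with the mean of its probe sets. Leaving out 1 array at a time gave -0.082 to 0.10 for Ikzf2, -0.096 to 0.030 for Ikzf5, -0.024 to 0.054 for Foxp3, -0.053 to 0.062 for Il2ra, -0.029 to 0.073 for Tnfrsf18, -0.44 to 0.036 for Tigit, -0.22 to 0.023 for Mta1, -0.26 to 0.086 for Runx3, -0.075 to 0.29 for Lta, -0.13 to 0.084 for Ntn1 and -0.036 to 0.072 for Ntng1. The causes were not tested. With 3 arrays a group, log2 differences under about 0.21 lie inside the typical 95% interval, and dim genes have compressed values.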

Other observations

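Gene families outside the lists gave further values, grouped after the results were known. Their counts are to be read against all genes, of which 3.71% were separated upward and 2.94% downward. Of 45 tested small nucleolar RNA genes, 2 were separated upward and 4 downward, with a median log2 difference of -0.08, with Snora69 among the higher and Snora7a among the lower ones. Of 77 mitochondrial ribosomal protein genes 5 were separated upward and 1 downward (median 0.05, and 0.11 without WT 1). Of 65 cytosolic ribosomal protein genes 51 were positive (all genes 53.3%) and 3 were separated upward, with a median of 0.03. Of 254 zinc finger genes named Zfp, 17 were separated upward and 8 downward. The 7 tested genes of the Oas family of antiviral defence had a median of -0.25, with 6 negative and 2 separated, both downward. Of 15 MHC genes 2 were separated, both downward, and of 22 histone genes 1 was, downward.

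Genes with large differences and overlapping groups varied among arrays of 1 group. Gdpd3, a phosphodiesterase gene, read 5.43, 9.97 and 9.99 in WT and 5.19, 9.87 and 5.28 in Ikzf4-/-, so that its 6 signals fell near 2 levels in both groups. Rab6b read 4.75, 8.52 and 7.81 in WT and 4.78, 8.09 and 4.95 in Ikzf4-/-, high on the same 3 arrays. Gm4956 read 9.31, 6.32 and 6.08 in WT and 6.97, 9.65 and 9.46 in Ikzf4-/-. Slc15a2, a peptide transporter gene, stood 1.16 higher (SE 0.51) with overlapping groups, and Mir142 1.19 higher (SE 0.53).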
